A study of Mus musculus with 4 samples.

Results

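The genes described here are 6 that control or carry out cholesterol synthesis, Srebf2, Srebf1, Scap, Insig1, Hmgcs1 and Sqle, among 21883 protein-coding genes of the mouse. They were listed by name, with every ATAC-seq peak that overlapped the mm10 gene span or the 10 kb on each side of it. The list was drawn up because a peak inside Srebf2 was present in the EpCAM-negative lists and in no EpCAM-positive list, so that peak is given as a description and supports nothing. ATAC-seq marks open DNA by the sites where a transposase can insert adapters. The cells were DN3 thymocytes of wild-type mice, immature precursors without CD4 or CD8 that rearrange the T cell receptor beta gene, sorted by flow cytometry. Beads against EpCAM, an epithelial adhesion molecule, then split them into a bound (EpCAM-positive) and an unbound (EpCAM-negative) fraction, each with 2 libraries. Both fractions share the genotype, and the labels name no treatment, age, sex or number of mice. Whether 2 libraries of a fraction stand for different mice is not stated either, and their spread may be technical.

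Cells adjust cholesterol synthesis through a feedback loop in the endoplasmic reticulum. SREBP proteins, the products of Srebf1 and Srebf2, are held there as precursors by SCAP, the sterol sensor that escorts them, and by INSIG proteins, which retain SCAP when sterols are plentiful. When sterols fall, SCAP carries the precursors to the Golgi apparatus, where proteases release a transcription factor that binds sterol regulatory elements at genes of synthesis and uptake. Dividing lymphocytes, including thymocytes that expand after beta rearrangement, draw on this pathway for membrane.

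Peaks of the 4 lists that shared at least 1 bp were joined into regions, 36224 in all, and the 6 windows held 21 of them. Of these 21, 12 were called in all 4 libraries and are called shared, 1 was called in both EpCAM-negative lists alone, 1 in both EpCAM-positive lists alone, and 7 had another pattern. All 6 windows held a shared region, as did 58% of the windows of all protein-coding genes. Across the genome, 50% of the regions in gene windows were shared, 1.48% were EpCAM-negative-only and 4.41% EpCAM-positive-only. The windows held 16 and 17 peaks in EpCAM-negative replicates 1 and 2 and 16 in each EpCAM-positive library. The means were 16.5 ± 0.707 and 16 ± 0 (SD, n = 2). Every relabelling of these 4 totals gives the same absolute difference, so an exact permutation test (two-sided, p = 1) could give no other value. These totals include the Srebf2 peak that chose the genes, so the p-value is given as a description and supports nothing. The numbers of peaks overlapped between the fractions. In such bulk libraries, a site open in more cells and a site open more often in each cell cannot be told apart. The nearest regions left out by the 10 kb limit lay 1446 bp below the Srebf2 window (shared) and 2986 bp below the Srebf1 window (EpCAM-negative-only), and the region nearest to the limit on the inside lay 9054 bp upstream of Hmgcs1.

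**Figure D1:**
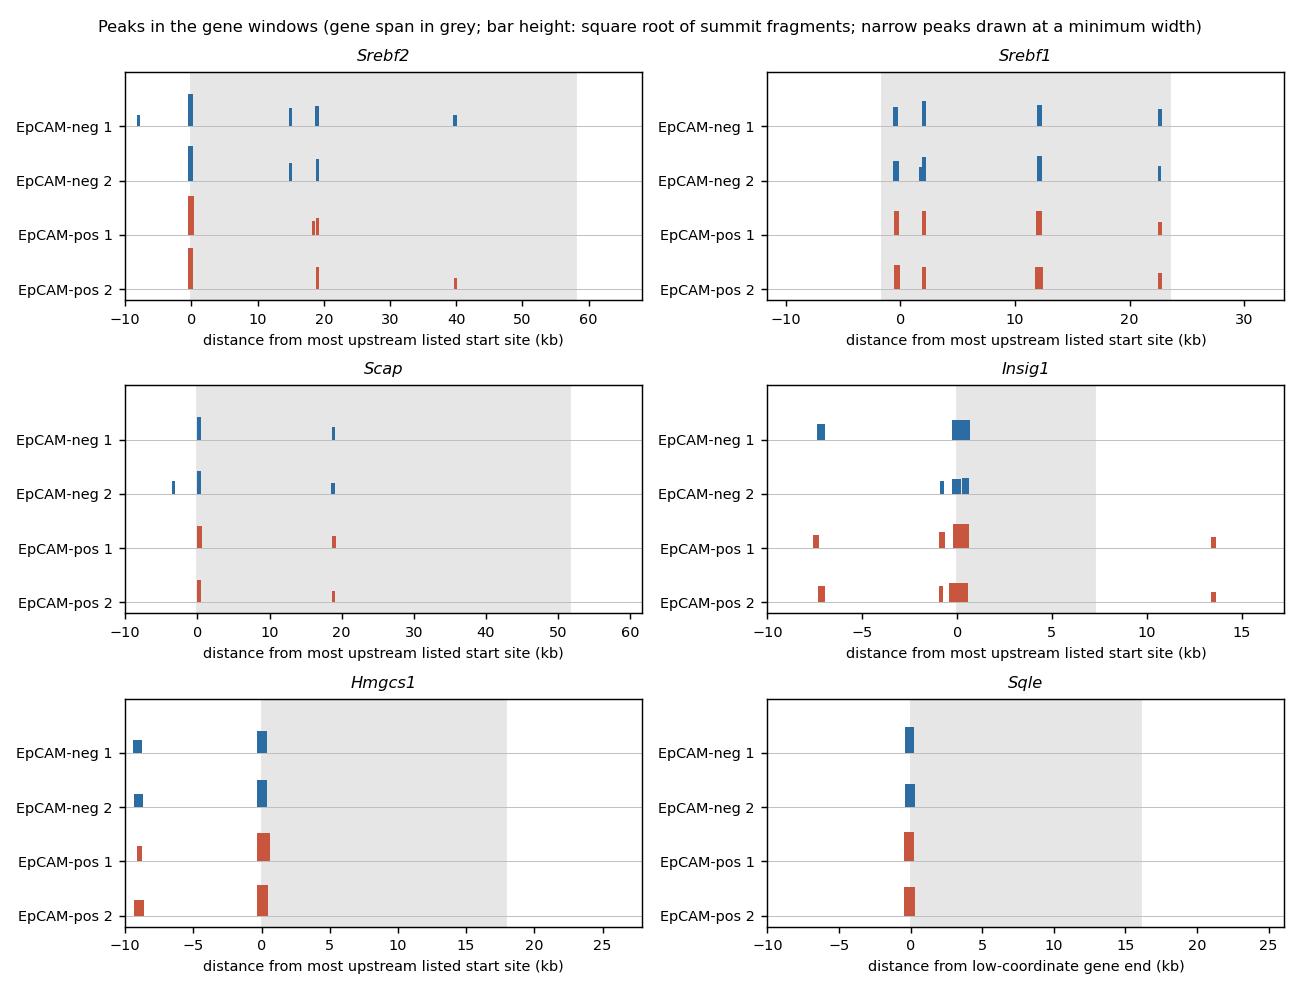
Peaks of each library along the 6 gene windows, with the distance in kb on the horizontal axis and 1 row per library (EpCAM-negative in blue, EpCAM-positive in red). The grey band is the gene span, bar height follows the square root of the summit fragments, and narrow peaks are drawn at a minimum width. Each window holds peaks that appear in all 4 rows, and the Srebf2 peak 15 kb into the gene appears in the 2 EpCAM-negative rows alone.

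The height of a peak is given as summit fragments, the pileup at its summit solved from the deposited fold and p-value. The libraries held 24598 to 29030 peaks, with a median of 17 to 20 summit fragments. The weakest peak had a −log10 q of 1.32 and 1.34 in EpCAM-negative replicates 1 and 2 and of 2.07 and 2.02 in EpCAM-positive replicates 1 and 2, so the EpCAM-negative lists reach weaker peaks. The background, taken as the lowest common value, came to 0.29 and 0.286 fragments per base for EpCAM-negative replicates 1 and 2. It was 0.388 and 0.383 in the EpCAM-positive libraries, a ratio of 1.34. Summit fragments of all 16761 shared regions had a median log2 ratio of 0.30 (EpCAM-positive over EpCAM-negative; quartiles 0.08 and 0.53), and of -0.11 after division by each library's background. Ratios below are therefore read against these medians. Read totals are not known. Of 7 genes that mark the DN3 stage, 6 had a shared region in the same kind of window (Il2ra, Ptcra, Cd3e, Notch1, Bcl11b and Dntt, but not Rag1). So did 2 of 5 markers of thymic epithelium (Foxn1 and Psmb11), 2 of 3 of B cells (Cd79a and Pax5) and 1 of 3 of myeloid cells (Itgam). The share over all gene windows was 58%. A listed start site lay under a shared region at 3 of 7 DN3 genes, 0 of 5 thymic epithelial, 0 of 2 B cell and 0 of 2 myeloid markers. The share over all genes was 41.5%. Epcam had 3 regions and 0 that were shared.

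Of the 5 members with a listed start site, 5 had one under a shared region, against 41.5% of all genes, and the sequences before 4 such sites are shown because the results turn on those regions. RefSeq's table for GRCm38.p6 held 8 start sites for 5 of the members, and Sqle was not matched. Capitals mark motifs found on either strand: the sterol regulatory element TCACNCCAC that SREBP proteins bind, the E-box CACGTG, the NF-Y box CCAAT and the Sp1 box GGGCGG, none of which contains another. Each line gives the 250 bases before a start site, read along the gene.
Srebf2 (chr15:82147019-82147268, plus strand): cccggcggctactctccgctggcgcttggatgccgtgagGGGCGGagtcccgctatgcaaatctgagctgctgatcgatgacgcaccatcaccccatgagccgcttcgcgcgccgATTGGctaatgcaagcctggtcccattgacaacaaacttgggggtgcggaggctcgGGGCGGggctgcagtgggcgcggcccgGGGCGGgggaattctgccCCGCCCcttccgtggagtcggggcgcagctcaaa
Srebf1 (chr11:60210472-60210721, minus strand): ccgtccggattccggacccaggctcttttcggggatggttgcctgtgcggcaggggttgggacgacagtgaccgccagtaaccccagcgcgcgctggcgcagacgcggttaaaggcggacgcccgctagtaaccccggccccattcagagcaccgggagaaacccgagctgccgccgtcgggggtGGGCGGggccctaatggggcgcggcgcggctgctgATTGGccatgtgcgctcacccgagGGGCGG
Insig1 (chr5:28071162-28071411, plus strand): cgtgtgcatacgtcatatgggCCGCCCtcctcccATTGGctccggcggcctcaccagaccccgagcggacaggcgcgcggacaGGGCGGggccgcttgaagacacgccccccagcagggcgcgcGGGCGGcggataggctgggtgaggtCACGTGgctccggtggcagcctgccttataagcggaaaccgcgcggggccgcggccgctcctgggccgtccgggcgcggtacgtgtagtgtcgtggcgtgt
Hmgcs1 (chr13:119690101-119690350, plus strand): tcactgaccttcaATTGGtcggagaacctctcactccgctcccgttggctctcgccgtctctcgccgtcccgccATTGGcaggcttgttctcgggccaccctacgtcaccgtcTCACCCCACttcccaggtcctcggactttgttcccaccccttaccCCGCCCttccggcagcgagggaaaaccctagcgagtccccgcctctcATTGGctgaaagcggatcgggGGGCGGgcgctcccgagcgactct

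Hmgcs1 carried the sterol regulatory element, from 137 to 129 bases before its start site, and was the single start site of the 8 to do so with these letters. The motif stood before 1.01% of the 21262 start sites of protein-coding genes. Hmgcs1 also had 3 NF-Y boxes and 2 Sp1 boxes. The NF-Y box stood before 5 of the 8 member sites, against 35.4% of all sites, and the Sp1 box before 6 of the 8, against 42.6%. The E-box was found at Insig1 and at 1 of the 2 Scap sites, 2 of 8 against 6.63%. The GC content before the sites printed above was 67.6% (Srebf2), 70.8% (Srebf1), 72.8% (Insig1) and 64.8% (Hmgcs1), against a median of 55.6% over all sites. It was 54.4% to 63.2% at the other 4 member sites. The 3 Srebf1 sites share 1 gene and the 2 Scap sites lie close together, so these counts are not over independent genes. A match of letters is no evidence of binding, and no sequence was read for regions away from start sites, because no genome was used here.

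Srebf2 encodes SREBP-2, the factor that chiefly drives cholesterol synthesis genes, and spans 82147269 to 82205379 on chromosome 15 (plus strand). Its start site lay under the highest peak of all 6 windows, a region from 82146730 to 82147582. Summit fragments there were 82 and 95 in the EpCAM-negative and 119 and 133 in the EpCAM-positive libraries. The EpCAM-positive libraries were both higher, with means of 126 ± 9.9 against 88.5 ± 9.19 (SD, n = 2), a log2 ratio of 0.51. Divided by background, the values were 283 and 332 against 307 and 347, and the fractions overlapped. The peak stood at the 93.7th to 98.0th percentile of each library's list by −log10 q.

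The region that led to the choice of these genes lay 15035 bp into Srebf2, from 82162118 to 82162388. It held 26 (95% exact Poisson interval 17.0 to 38.1, counting error only) and 25 (16.2 to 36.9) summit fragments in EpCAM-negative replicates 1 and 2, and no peak was listed there in either EpCAM-positive library. Its fold over local background was 6.29 and 5.92 and its −log10 q 12.5 and 11.3, near the middle of both lists (53.8th and 52nd percentile). Among the 623 EpCAM-negative-only regions of the genome, the lower of the 2 values had a median of 8 fragments, and 7 regions (1.12%), this one included, reached 25 or more. Of all protein-coding genes, 1.59% had an EpCAM-negative-only region over the gene span, and 2.25% had one in the window. These values chose the gene and were not tested.

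The lists also show what surrounded that region. The nearest EpCAM-positive peaks were 3173 bp away in replicate 1 and 3646 bp away in replicate 2. At the local background of those peaks, 3.41 and 3.36 fragments per base, a summit of 13 fragments would have reached the lowest p-value found in the list, and at the EpCAM-negative local background scaled up for depth it would have taken 15. The same height over background as in the EpCAM-negative libraries would have been 34.4 and 33.9 fragments. The level there in the EpCAM-positive libraries is not in the lists, and other settings of the caller are not known. At the region itself, EpCAM-negative replicates 1 and 2 had a local background of 3.29 and 3.39 fragments per base. Of the 623 EpCAM-negative-only regions, 22 (this one included) had a local background as high or higher, and the median was 0.584. The part of that high local background in the call was not tested.

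Deeper in Srebf2, 3 further regions were found. A shared region from 82166011 to 82166577 held 32 and 38 summit fragments in the EpCAM-negative and 23 and 38 in the EpCAM-positive libraries, and the fractions overlapped. Its log2 ratio was -0.20, and 8.29% of all shared regions had a lower one. Divided by background, the values were 110 and 133 against 59.3 and 99.2, so both EpCAM-negative libraries were higher on that scale. A peak from 82165561 to 82165814, beside it, was listed in EpCAM-positive replicate 1 alone with 16 fragments. A region from 82186920 to 82187299 was called in EpCAM-negative replicate 1 with 11 and in EpCAM-positive replicate 2 with 9 fragments. Mir33, the microRNA gene that lies within Srebf2 and represses cholesterol efflux, had its nearest peak 10823 bp away. Upstream, a peak of 10 fragments at 82139157 to 82139380 was listed in EpCAM-negative replicate 1 and lay within the neighbouring gene Ccdc134.

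Of the 348 other genes with an EpCAM-negative-only region over the gene span, the 5 nearest to Srebf2 in their 2 summit values were Thada, Cnot6l, Spcs2, Elfn2 and Cmah. Likeness was the sum of absolute log2 ratios over the 2 EpCAM-negative libraries, which ran from 0.06 to 0.37. Thada had 26 and 26 fragments, Cnot6l 27 and 28, Spcs2 28 and 22, Elfn2 23 and 23, and Cmah 28 and 30. Local background at these regions was 2.33 to 5.91 fragments per base, beside a median of 0.584 over all EpCAM-negative-only regions. These genes were picked for summits as high as that of Srebf2, so their local background is a description and supports nothing. At 4 of the 5 a shared region lay 744 to 2608 bp away, and at Elfn2 it lay 31634 bp away.

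Srebf1 encodes SREBP-1, the paralogue that acts more on fatty acid synthesis, and spans 60199084 to 60224186 on chromosome 11 (minus strand). It had the most shared regions of the 6 genes, 4 of 5, and they did not move together. The region from 60210161 to 60210820, over 1 of its start sites, held 36 and 47 summit fragments in the EpCAM-negative and 46 and 39 in the EpCAM-positive libraries, and the fractions overlapped. A region from 60220357 to 60220683, over another start site, held 51 and 43 against 44 and 39, and they overlapped again. At a region from 60222647 to 60223201 the fractions did not overlap, with 29 and 29 against 47 and 45 fragments. Its means were 29 ± 0 and 46 ± 1.41 (SD, n = 2), and its log2 ratio of 0.67 was above that of 85.5% of all shared regions. It lay 391 bp upstream of the most upstream listed start site, inside the gene span. Both EpCAM-positive libraries stayed higher after division by background, with means of 119 against 101.

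The other shared region of Srebf1, from 60199795 to 60200136 near the far end of the gene, held 24 and 17 fragments in the EpCAM-negative and 14 and 21 in the EpCAM-positive libraries. These values overlapped, and the log2 ratio of -0.23 was the lowest of the 12. After division by background, both EpCAM-negative libraries were higher at this region and at the 2 start-site regions, with log2 ratios of -0.65, -0.39 and -0.60. A small peak from 60220687 to 60220898 was listed in EpCAM-negative replicate 2 alone, with 15 fragments. So 3 of the 4 shared Srebf1 regions separated the fractions only after division, and the upstream one on both scales. Of all shared regions, 54.6% separated the fractions in summit fragments and 45.4% after division. Both EpCAM-negative libraries were higher after division at 32.1% of all shared regions. The microRNA genes Mir6921 and Mir6922 lie nearer than the ends of Srebf1 to the region at the far end (548 bp) and to the start-site region at 60210161 (8125 bp).

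Scap encodes the sterol sensor, and spans 110333288 to 110384949 on chromosome 9 (plus strand). Its start-site region, from 110333236 to 110333865, held 42 and 40 summit fragments in the EpCAM-negative and 39 and 42 in the EpCAM-positive libraries. The means of 41 ± 1.41 and 40.5 ± 2.12 (SD, n = 2) differed by less than the spread between libraries. A shared region from 110351823 to 110352446, inside the gene, held 13 and 10 against 11 and 10 fragments. Both had log2 ratios below the median of shared regions, -0.02 and -0.13. Divided by background, both EpCAM-negative libraries were higher at the start site (145 and 140 against 101 and 110) and at the inner region (44.8 and 35.0 against 28.4 and 26.1). A peak of 14 fragments 3366 bp upstream of the gene was listed in EpCAM-negative replicate 2 alone.

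Insig1 encodes the retention factor for SCAP, which is itself induced by SREBP proteins, and spans 28071412 to 28078662 on chromosome 5 (plus strand). Its start-site region, the widest of the 21 at 1095 bp, held 32 and 21 summit fragments in the EpCAM-negative and 45 and 31 in the EpCAM-positive libraries. The fractions overlapped, with a log2 ratio of 0.52. It was 0.86 without EpCAM-negative replicate 1 and 0.25 without EpCAM-negative replicate 2. Without EpCAM-positive replicates 1 and 2 in turn it was 0.23 and 0.76. Divided by background, the values were 110 and 73.4 against 116 and 80.9, a log2 ratio of 0.10, and they overlapped as well. In EpCAM-negative replicate 2 the region was split into 2 peaks, and the value of 21 came from the one with its summit 464 bp after the start site. The other had 17 fragments at a summit 21 bp before the start site. Summits of the other libraries lay between -85 and 122 bp, so the ratios above compare different summits. A region from 28084770 to 28085064, 6214 bp beyond the gene, was the single EpCAM-positive-only region of the 6 windows. Its summits held 10 (95% exact Poisson interval 4.80 to 18.4) and 9 (4.12 to 17.1) fragments. Of the 1594 EpCAM-positive-only regions in the genome, 64.1% were at least as high by the lower of the 2 values, and 7.13% of all gene windows held one. The same height over background would have been 7.14 and 7.05 fragments in the EpCAM-negative libraries, where 5 would have reached the lowest p-value listed at the region's own background scaled down, but 11 and 9 at the background of the nearest EpCAM-negative peaks, 12688 and 12728 bp away.

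The other Insig1 regions were called in 3 lists each. The one 7148 bp upstream held 19 fragments in EpCAM-negative replicate 1 and 13 and 21 in the EpCAM-positive libraries, and was not listed in EpCAM-negative replicate 2. The one 862 bp upstream held 13 fragments in EpCAM-negative replicate 2 and 21 and 21 in the EpCAM-positive libraries, and was not listed in EpCAM-negative replicate 1. The EpCAM-positive values thus passed the EpCAM-negative one at the nearer region, and lay on both sides of it at the farther one. At the farther region the summit of EpCAM-positive replicate 1 (28063913) stood apart from those of EpCAM-negative replicate 1 (28064258) and EpCAM-positive replicate 2 (28064264). Its 13 fragments were thus not measured at the same place. All 4 Insig1 regions lay within the span of Gm35223, a long non-coding RNA gene, so position alone does not give them to Insig1. The nearer end of Gm35223 was 39039 to 58322 bp from their summits, whereas the shared region covered the Insig1 start site, with its summit 111 bp away.

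Hmgcs1 encodes HMG-CoA synthase, the enzyme before the rate-limiting reductase and a direct SREBP target, and spans 119690351 to 119708260 on chromosome 13 (plus strand). Its start-site region, from 119689977 to 119690951, covers the sterol regulatory element printed above. It held 39 and 60 summit fragments in the EpCAM-negative and 64 and 75 in the EpCAM-positive libraries. Both EpCAM-positive values were higher, by a log2 ratio of 0.49, and EpCAM-negative replicate 1 was the low one. Without that library the log2 ratio was 0.21, and without EpCAM-negative replicate 2 it was 0.83. Divided by background, the fractions overlapped (134 and 210 against 165 and 196). A shared region 9054 bp upstream held 13 and 14 against 19 and 19 fragments and lay at the end of another gene, the long non-coding 1700074H08Rik. Divided by background, its values were 44.8 and 48.95 against 48.97 and 49.6, so the fractions almost met.

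Sqle encodes squalene epoxidase, an enzyme of the pathway that is also an SREBP target, and spans 59315092 to 59331193 on chromosome 15. Its window held 1 region, from 59314612 to 59315428, over the low-coordinate end of the gene. It held 52 and 44 summit fragments in the EpCAM-negative and 68 and 64 in the EpCAM-positive libraries. The means were 48 ± 5.66 and 66 ± 2.83 (SD, n = 2), both EpCAM-positive libraries were higher, and the log2 ratio was 0.46. After division by background the values were 179 and 154 against 175 and 167, and they overlapped.

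**Figure D2:**
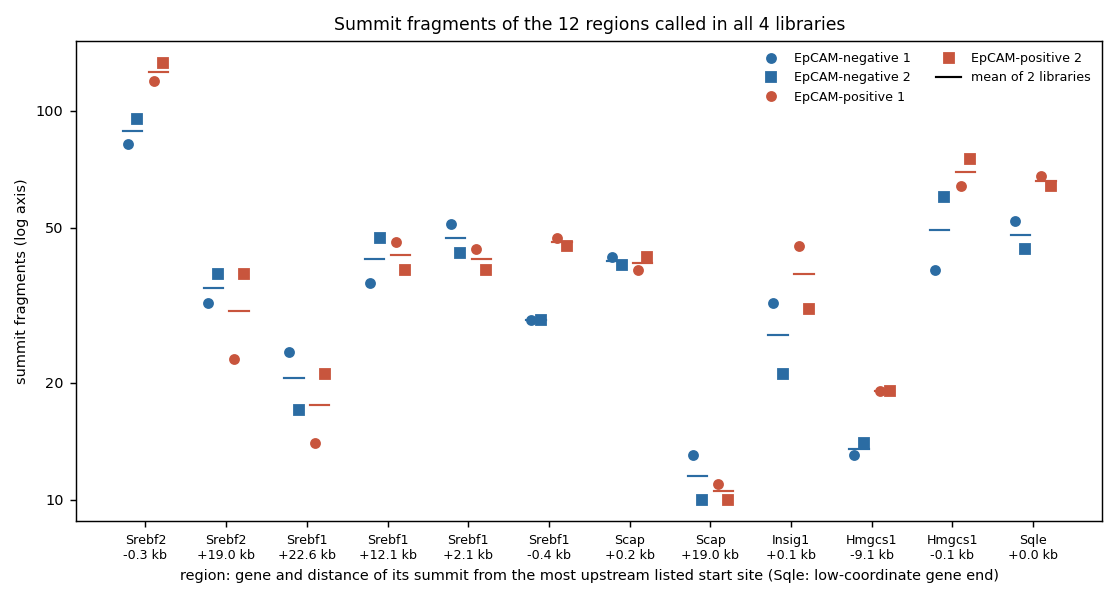
Summit fragments (log axis) in each library for the 12 shared regions, with EpCAM-negative libraries in blue, EpCAM-positive in red, replicate 1 as circles, replicate 2 as squares and lines at the mean of the 2 libraries. At the start site of Srebf2, at both Hmgcs1 regions, at the gene end of Sqle and upstream of Srebf1 both red points lie above both blue ones, and at Scap they overlap.

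The 12 shared regions thus fell on both sides of the median of all shared regions. In summit fragments the fractions did not overlap at 5 of the 12, against 54.6% of all shared regions. Both EpCAM-positive libraries were higher at these 5, against 49.4% of all shared regions, and both EpCAM-negative libraries at 0, against 5.2%. After division by background they did not overlap at 8, against 45.4%. Both EpCAM-positive libraries were then higher at 2 of the 12, against 13.3%, and both EpCAM-negative libraries at 6, against 32.1%. The upstream Hmgcs1 region was among the 2, with 48.95 in EpCAM-negative replicate 2 and 48.97 in EpCAM-positive replicate 1. The median log2 ratio of the 12 was 0.25 in summit fragments (range -0.23 to 0.67) and -0.17 after division (range -0.65 to 0.24), beside 0.30 and -0.11 over all shared regions. The start-site regions of Srebf2, Insig1 and Hmgcs1, the region at the low-coordinate end of Sqle and the upstream one of Hmgcs1 lay within 0.46 to 0.52. Both Scap regions, 3 of the 4 of Srebf1 and the inner one of Srebf2 lay within -0.23 to 0.03, and these were the 6 at which both EpCAM-negative libraries were higher after division. Division by background lowered every log2 ratio by a similar amount, so the direction after division is not a separate observation. This grouping was seen in the data and not tested.

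**Figure D3:**
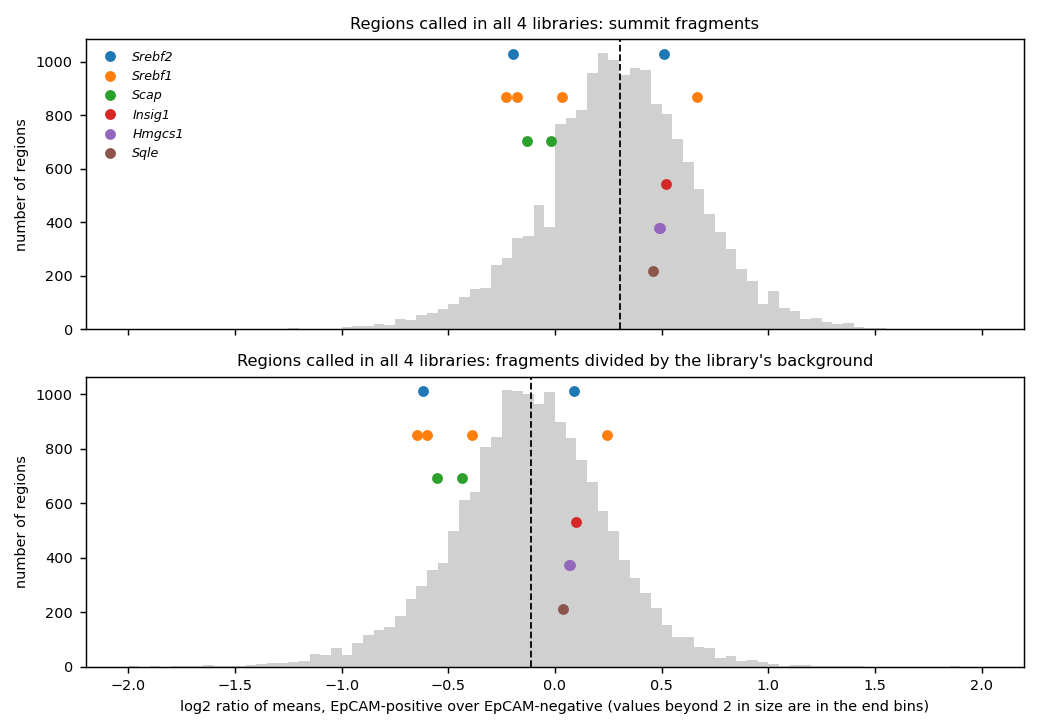
Log2 ratio of mean height, EpCAM-positive over EpCAM-negative, for all 16761 shared regions (grey, number of regions per bin; dashed line at the median) and for the 12 regions of the 6 genes (coloured points, placed at arbitrary heights). The upper panel uses summit fragments (median 0.30) and the lower one fragments divided by each library's background (median -0.11). The start-site regions of Srebf2, Insig1 and Hmgcs1 and the region at the low-coordinate end of Sqle lie to the right of the median in both panels, and the Scap regions to the left.

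The rest of the pathway was described from a list of 39 genes, from which those named below without a fraction-only region were picked after their values were seen. All 39 windows held a shared region, against 58% of all gene windows, and of 108 regions 68 were shared. The list held 0 EpCAM-negative-only regions, where 2.25% of all gene windows held one, and 5 EpCAM-positive-only regions in 5 windows (12.8%), against 7.13%. Of the 28 genes with a listed start site, 23 had it under a shared region, against 41.5% of all genes. In these 23, both EpCAM-positive libraries were higher at 13 in summit fragments, against 58.4% of all start-site regions, and both EpCAM-negative libraries at 0, against 1.7%. After division by background the counts were 1 and 10, against 13.5% and 27.4%. The median log2 ratio was 0.23 in summit fragments and -0.19 after division, beside 0.34 and -0.08 over the start-site regions of all genes.

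The synthesis enzymes, which turn acetyl-CoA into cholesterol, had 31 shared regions among 36 (50% of regions in all gene windows) and a start site under one at 13 of 15 genes (41.5% of all genes). Idi1, the isomerase of the isoprenoid units, was the highest, with 195 and 175 summit fragments in the EpCAM-negative and 203 and 231 in the EpCAM-positive libraries. Acat2, which joins acetyl-CoA units at the start of the pathway, had 141 and 148 against 158 and 174. Cyp51, the lanosterol demethylase, had 107 and 96 against 129 and 132. In each of these 3 genes both EpCAM-positive libraries were higher, as at 9 of the 13 and at 58.4% of all start-site regions. The lowest 2 were Nsdhl, a sterol dehydrogenase, with 16 and 20 against 24 and 31, and Sc5d, a sterol desaturase, with 21 and 20 against 19 and 24. The values of Sc5d overlapped. After division by background both EpCAM-negative libraries were higher at 7 of the 13, among them Idi1 and Acat2, against 27.4% of all start-site regions, and both EpCAM-positive libraries at 0, against 13.5%.

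Among the genes that act with the members in sensing, Insig2, the other retention factor, had 27 and 25 summit fragments against 28 and 28 at its start site. Both EpCAM-positive libraries were higher there, as at 58.4% of all start-site regions. Divided by background, both EpCAM-negative libraries were higher (93.1 and 87.4 against 72.2 and 73.1), as at 27.4% of all start-site regions. Mbtps1, the protease that makes the initial cut in SREBP, had 134 and 93 against 153 and 113, and Mbtps2, which makes the next cut, had 24 and 17 against 17 and 32. The values of both proteases overlapped between fractions. Replicate 1 was the higher one in both fractions at Mbtps1.

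In efflux and fatty acid synthesis, Abca1, which exports cholesterol from the cell, had 9 and 9 fragments at its start site in the EpCAM-negative and 14 and 22 in the EpCAM-positive libraries. It was the 1 gene of the 23 at which both EpCAM-positive libraries were higher after division by background (36.1 and 57.4 against 31.0 and 31.5). Nr1h2, which encodes the liver X receptor beta, had 68 and 68 against 106 and 87. Fasn, the fatty acid synthase, had 90 and 79 against 94 and 67, and Acly, which makes cytosolic acetyl-CoA, had 104 and 85 against 118 and 119. Both EpCAM-positive libraries were higher at Abca1, Nr1h2 and Acly, and the Fasn values overlapped. Nr1h2, Acly and Fasn were picked after their values were seen. In the whole list of efflux, liver X receptors and storage, both EpCAM-positive libraries were higher at 2 of 4 start-site regions. In that of fatty acid synthesis they were higher at 1 of 2, beside 58.4% of the start-site regions of all genes. After division by background Nr1h2 and Acly overlapped, and both EpCAM-negative libraries were higher at Fasn (310 and 276 against 242 and 175).

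The 5 EpCAM-positive-only regions of the pathway all lay inside genes. Elovl6, a fatty acid elongase, held the highest, with 18 and 28 summit fragments on chromosome 3 (129536066 to 129536698). Abca1 held one with 16 and 12 on chromosome 4 (53158807 to 53159086), 542 bp from an EpCAM-negative peak. Npc1 and Npc2, which move cholesterol out of lysosomes, held one each, with 9 and 16 and with 7 and 9. Lss, the lanosterol synthase, held one with 10 and 8. With lists cut to equal length the count fell from 5 to 1, which lay at Npc1. A fraction reduced to 1 library needs 1 call, and the count was then 9 and 10 without EpCAM-negative replicates 1 and 2, and 13 and 10 without EpCAM-positive replicates 1 and 2.

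**Figure D4:**
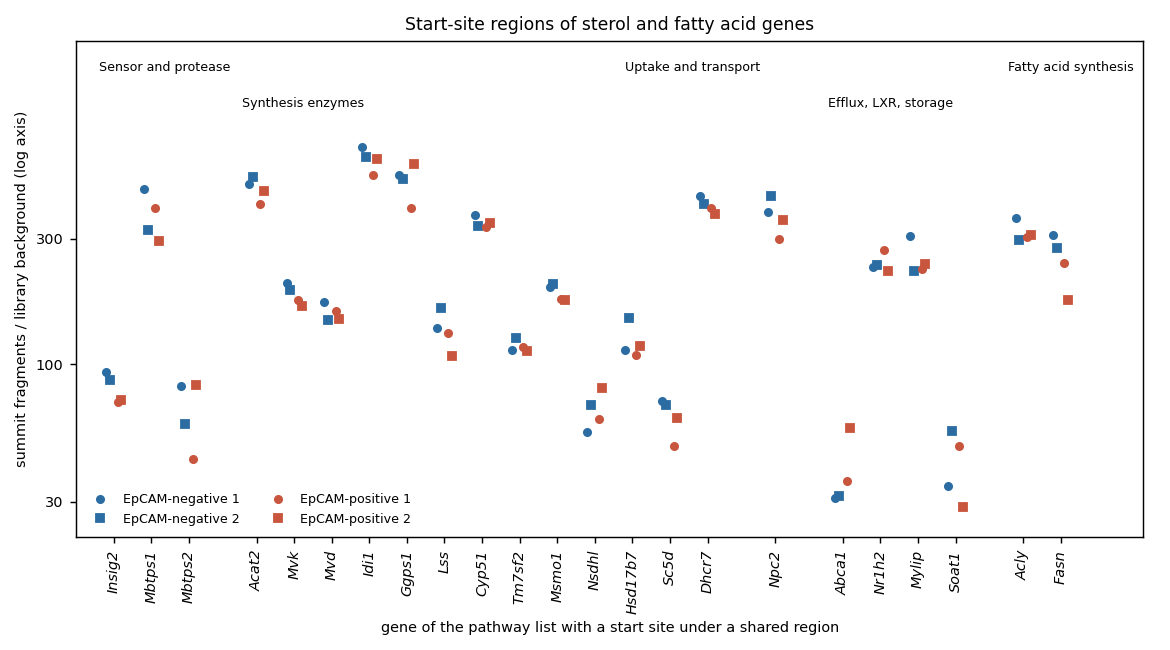
Summit fragments divided by the library's background (log axis) at the start-site regions of 23 genes of the pathway list, grouped by role, with EpCAM-negative libraries in blue, EpCAM-positive in red, replicate 1 as circles and replicate 2 as squares. Both blue points lie above both red ones at 10 genes, and the reverse holds at Abca1 alone.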

How the data were processed

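ATAC-seq peak lists of 4 libraries of DN3 thymocytes, 2 per EpCAM fraction, were used. The submitters' processing notes name MACS3, Bowtie2, Picard, SAMtools, deepTools, bedtools, Trimmomatic, Trim Galore and FastQC, with mm10 (GRCm38) as the build. Versions, caller settings and the treatment of duplicates and insertion offsets were, however, not given in the sources used here. Each deposited list, called per library, gives a display score, a fold enrichment (a ratio) and the −log10 of the p-value and q-value, all the authors' values for the single peak. Percentiles are ranks by −log10 q within a list.

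The deposited fold and −log10 p of a peak were solved for its summit pileup and local background, taking the fold as pileup plus 1 over background plus 1 and a Poisson upper tail, within 0.01 on −log10 p. This succeeded for 99.9885% to 99.9959% of peaks, and for all of 2000 peaks in a test on simulated data. No source used here says whether the pileup counts fragments or reads. A library's background is the lowest bin of 0.001 holding at least 0.5% of its peaks. Depth-scaled values divide by it.

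Lists were merged over the autosomes, X and Y, and genes came from RefSeq GRCm38.p6. Python 3.11.15, scipy 1.17.1, pandas 2.3.3 and matplotlib 3.10.9 were used. With 2 libraries against 2, an exact permutation p cannot fall below 0.33, so regions were counted. The members and gene lists were chosen with earlier results of these data known. Named genes were the 6 members; pathway genes with a fraction-only region; the 5 genes most like Srebf2; and, chosen after their values were seen, Idi1, Acat2, Cyp51, Nsdhl, Sc5d, Insig2, Mbtps1, Mbtps2, Nr1h2, Fasn and Acly. Alternatives changed the window, the q threshold, list length, the overlap rule, the scaling and the libraries.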

Additional observations from a re-analysis of the deposited data

How the results depend on the processing

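The gene spans with no flank held 0 EpCAM-positive-only regions, because that of Insig1 lies outside the gene. With 50 kb on each side, the 6 windows held 2 EpCAM-negative-only, 3 EpCAM-positive-only and 20 shared regions. The difference in peaks per library (EpCAM-positive minus EpCAM-negative), -0.5 in the main setting, was -1.5 with no flank and 4 with 50 kb. Each of these 2 settings gave a two-sided exact permutation p = 0.333, the smallest possible, in opposite directions. The Srebf2 peak that chose the genes is counted in both, so these p-values are descriptions. The pathway list held 8 EpCAM-positive-only regions with 50 kb on each side and 1 with lists of equal length. It held 1 EpCAM-negative-only region when peaks up to 500 bp apart were joined. The cause was not tested.

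Leaving out 1 library, the member windows held 1 to 3 EpCAM-negative-only and 1 to 2 EpCAM-positive-only regions (3 EpCAM-negative-only without EpCAM-negative replicate 1 and 2 without replicate 2; 2 EpCAM-positive-only without EpCAM-negative replicate 1, EpCAM-negative replicate 2 or EpCAM-positive replicate 2). The pathway list held 1 to 5 and 9 to 13, and the difference in peaks ran from -1 to 0. A left-out library lowers the number of calls its fraction needs. The log2 ratio of the strongest region ran from 0.41 to 0.62 at Srebf2, -0.15 to 0.24 at Srebf1, -0.07 to 0.03 at Scap, 0.23 to 0.86 at Insig1, 0.21 to 0.83 at Hmgcs1 and 0.34 to 0.58 at Sqle. Divided by background, it was 0.089 at Srebf2, -0.39 at Srebf1, -0.44 at Scap, 0.10 at Insig1, 0.068 at Hmgcs1 and 0.039 at Sqle. Divided by each library's median over shared regions, a scaling chosen after seeing the data, it was 0.18, -0.30, -0.35, 0.19, 0.15 and 0.13 in the same order. The sign thus turned at Srebf1 under both scalings, and at Srebf1 and Scap with 1 library left out. With the replicate number as a block, the difference in peaks was again -0.5; no label says that a number marks a shared mouse or day, and with 2 pairs the pairing was not assessed further. The lowest summit listed had 3 fragments in each EpCAM-negative and 5 in each EpCAM-positive library, and the lists also end at different q-values; the cause was not tested.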
